A study of Rattus norvegicus with 9 samples.

Results

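The comparison described here sets the pubococcygeus muscle of rats that had been made incontinent and then electrically stimulated against the same muscle of untouched rats. It asks what still differs from normal muscle at the end of treatment. It rests on 6 of the 9 RNA-seq libraries of the study, 3 from the stimulated group and 3 from the blank group, and on 16256 genes tested of 30518 in the deposited table. No value of the 3 untreated libraries of the stress urinary incontinence (SUI) model was compared. They entered the gene filter, the scaling factors and the estimate of spread. The study divided 24 female Sprague-Dawley rats, age not given in the sources used here, into 3 groups of 8. Blank rats received nothing. Stimulated rats first underwent bilateral ovariectomy and a vaginal distension of 4 h, for which an 8 Fr Foley balloon was filled with saline (3 mL) and pulled by a hanging weight of 120 g. From 1 week later they received transvaginal pelvic floor electrical stimulation (PFES) as a monophasic square wave of 50 Hz, 20 mA and 200 μs pulse width, for 30 min a day on 5 days a week over 2 weeks. The 2 groups therefore differ in ovariectomy, distension and stimulation at once, and the shares of these in any difference cannot be told apart here. The sources used here do not link the libraries to single rats or pools, so p-values measure the spread between libraries.

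The pubococcygeus is a striated muscle of the pelvic floor that supports the urethra and vagina, and stress incontinence after childbirth or menopause is commonly modelled by stretching the vagina and removing the ovaries. Skeletal muscle answers injury and load by changing its contractile isoforms, its junctions with motor nerves, its connective tissue and blood vessels, and its mitochondria. It also keeps a circadian clock, in which the transcription factors BMAL1 and CLOCK drive genes such as Per2 and Nr1d1, whose products then repress BMAL1, CLOCK or their genes.

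Library depth ran from 50833480 counts in blank 1 to 147650284 in stimulated 1. Blank 1 stood apart from the other 8 libraries. The mitochondrial genome gave 32.9% of its counts against 13.4% to 17.7% elsewhere, its median correlation with the other libraries was 0.920, and the first principal component, with 31.5% of the variance, separated it. By the mean log2 CPM of each list, stimulated 2 was the highest of the 6 libraries and stimulated 1 the lowest in collagen, other matrix, interferon and leukocyte genes, while for single genes and for summed FPKM the lowest library was in places a blank one. The tissue label was checked against its markers in every library. The 10 skeletal muscle markers, among them the muscle actin and creatine kinase genes, summed to between 25147 and 49004 FPKM (fragments scaled by transcript length and sequencing depth), and the 4 epithelial markers tested to between 0.2 and 0.6 FPKM. In these bulk samples fewer cells of a type and less RNA per cell cannot be told apart.

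Few genes differed between stimulated and untouched muscle by the test across all genes. Of 16256 genes, 1 passed an adjusted p of 0.05 by edgeR's quasi-likelihood test with Benjamini-Hochberg adjustment, the phosphatase gene Plpp6, or 0.00615% of the genes tested. The second smallest adjusted p was 0.841, so that no other gene named here passed this test. At an unadjusted p under 0.05 there were 613 genes, 319 higher and 294 lower in stimulated muscle. The other tool run on the counts, DESeq2, called 21 of the 16211 genes it adjusted (0.13%), 8 higher and 13 lower. Among them were Plpp6, Spata6l, Ntrk2, Greb1, Dkk2, Bok, Lman1, Mmp11, Adgrb2, Rpl30l2 and the cartilage and bone genes Mmp13, Ibsp, Col10a1, Acan and Mmp9, with DESeq2 adjusted p values from 3.32e-15 for Plpp6 to 0.0478 for Mmp11. Over all genes the log2 fold changes had a median of 0.04 and a median standard error of 0.35. As a description beside the test, a gene is called separated here when its 3 stimulated values all lay above or all below the 3 blank values, in counts scaled to the library size (CPM). That held for 1285 genes higher in stimulated muscle (7.9% of those tested) and 768 lower (4.72%), and these shares are the background against which the counts within gene groups are read. The split depends on the scaling: with library totals in place of the TMM composition factors, 758 genes (4.66%) were separated higher and 1014 (6.24%) lower, and the median of all genes was 0.09.

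**Figure D1:**
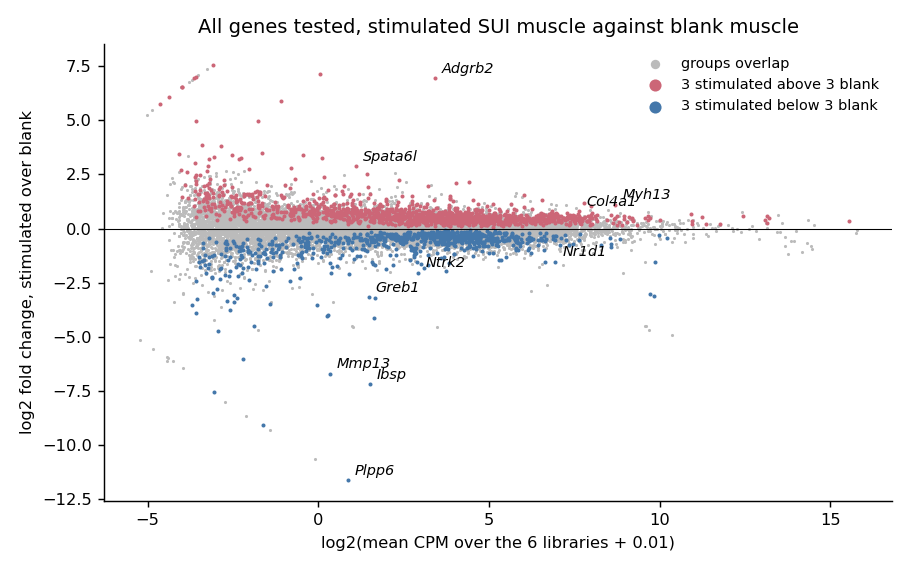
Each point is 1 of the 16256 genes tested, with its mean level over the 6 libraries (log2 CPM with 0.01 added) on the x axis and its log2 fold change, stimulated over blank, on the y axis. Red and blue genes are those with no overlap between the groups; Plpp6, at the bottom, is the single gene past the adjusted threshold.

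Plpp6, which encodes a phosphatase of isoprenoid diphosphates, gave 182, 446 and 254 counts in the 3 blank libraries and 0 in each stimulated library. In CPM these are 4.82, 3.45 and 2.51 against 0, 0 and 0. Every blank library therefore held the transcript at a low level, 0.955 ± 0.166 FPKM (SD, n = 3), and no read was assigned to it after treatment. Against a floor of 3 counts over the stimulated group it was at least 441-fold lower (edgeR adjusted p = 0.0147). The gene lies on the plus strand of chromosome 1, at chr1:226679100-226681949 in mRatBN7.2, inside the span of Spata6l, which runs on the minus strand from 226641518 to 226682884. Spata6l, a relative of the sperm protein gene Spata6, moved the other way. It stood at 0.821, 0.372 and 0.375 CPM in blank and at 3.02, 4.35 and 3.90 CPM in stimulated muscle, a log2 fold change of 2.88 ± 0.50 (SE) with no overlap. The sum of the 2 genes, 4.12 ± 1.401 CPM in blank and 3.76 ± 0.68 CPM in stimulated libraries (SD, n = 3), overlapped between groups. For the sum the log2 fold change was -0.13 ± 0.34 (edgeR adjusted p = 0.958). The strand setting of the counting was not stated, and without strand the reads of these 2 genes cannot be told apart. The Plpp6 call was lost in 7 of the 9 fits that left out a library, with adjusted p values up to 0.161 without blank 1, and in the fit on the 6 libraries compared (0.216).

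**Figure D2:**
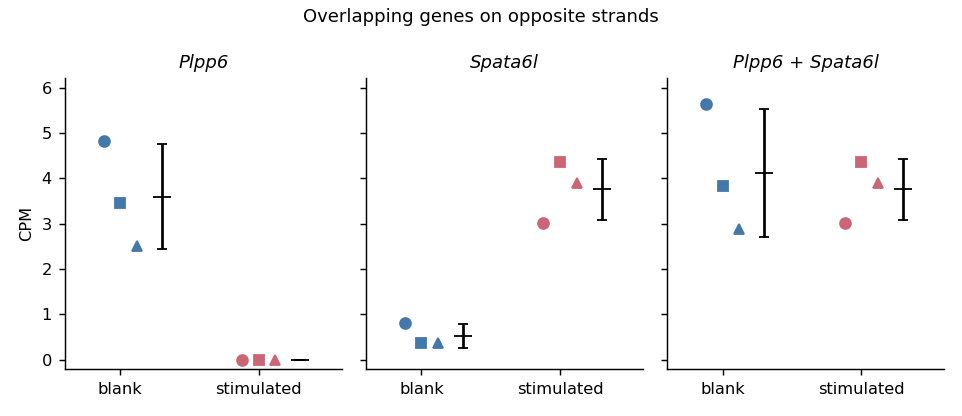
CPM of Plpp6, Spata6l and their sum in each blank (blue) and stimulated (red) library, with circles, squares and triangles for libraries 1, 2 and 3 and bars for mean and SD (n = 3). Plpp6 is at 0 and Spata6l between 3.02 and 4.35 in the stimulated libraries, and the sums of the 2 groups overlap.

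Genes of mineralising and cartilage matrix were lower in stimulated muscle, several of them almost absent. Ibsp, which encodes bone sialoprotein, stood at 14.1, 0.906 and 1.87 CPM in blank and at 0.061, 0.049 and 0 CPM in stimulated libraries. Mmp13, the collagenase of cartilage and bone turnover, stood at 4.98, 0.806 and 1.65 CPM against 0.038, 0.028 and 0 CPM. Neither gene overlapped between groups, and both were highest in blank 1. Their log2 fold changes, -7.19 ± 1.41 and -6.71 ± 1.38, were -5.21 and -5.74 without that library; fitted values this close to 0 counts depend on the prior count of the fit. Acan, the gene of the cartilage proteoglycan aggrecan, gave 33, 17 and 88 counts in blank and 0 in each stimulated library, at least 69.0-fold lower against the floor of 3 counts over the group. Col10a1, the collagen of hypertrophic cartilage, showed the same order with 2.83, 0.782 and 3.18 CPM against 0.259, 0.063 and 0.093 CPM. The gelatinase gene Mmp9, which osteoclasts and neutrophils express strongly, stood at 3.18, 1.08 and 2.47 CPM in blank and at 0.061, 0.189 and 0.148 CPM after stimulation. All of these were separated in all 6 libraries, and the blank libraries were scattered over a wider range than the stimulated ones. Col11a2, a minor cartilage collagen, was lower by a smaller factor, 2.57, 2.69 and 4.61 CPM against 1.21, 1.07 and 1.86 CPM, a log2 fold change of -1.25 ± 0.34.

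Of 10 markers of tendon, cartilage and bone, 8 were lower and 2 higher in stimulated muscle, with a median log2 fold change of -1.27 beside 0.04 over all genes. The median was -1.83 without blank 1, -0.80 without stimulated 1 and -2.12 without stimulated 3. Separated were 3 lower (30.0%: Ibsp, Acan and Bglap, the osteocalcin gene) and 1 higher (10.0%), against 4.72% and 7.9% of all genes. Comp, which encodes a matrix protein of cartilage and tendon, overlapped, with 0.556, 1.15 and 5.37 CPM in blank and 0.564, 0.477 and 0.997 CPM in stimulated libraries. The 10 markers summed to 11.0 to 28.6 FPKM in blank and 14.7 to 23.2 FPKM in stimulated libraries, since other members made up most of the sum, and Acan was the single marker at 0 in a whole group. The part of attached skeletal tissue in these values was not tested. Outside the marker list, Ccn4, a matricellular gene of the Wnt target list that osteoblasts express, gave 1.27, 1.23 and 0.908 CPM in blank and 0.198, 0.315 and 0.179 CPM in stimulated libraries, with no overlap. In that list of 17 genes, 8 were higher and the median was -0.19, or 0.11 without stimulated 1. Dkk2, a secreted Wnt antagonist, was its separated higher member, with 3.92, 4.94 and 2.83 CPM in blank and 9.45, 10.5 and 8.04 CPM in stimulated libraries, a log2 fold change of 1.26 ± 0.28.

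**Figure D3:**
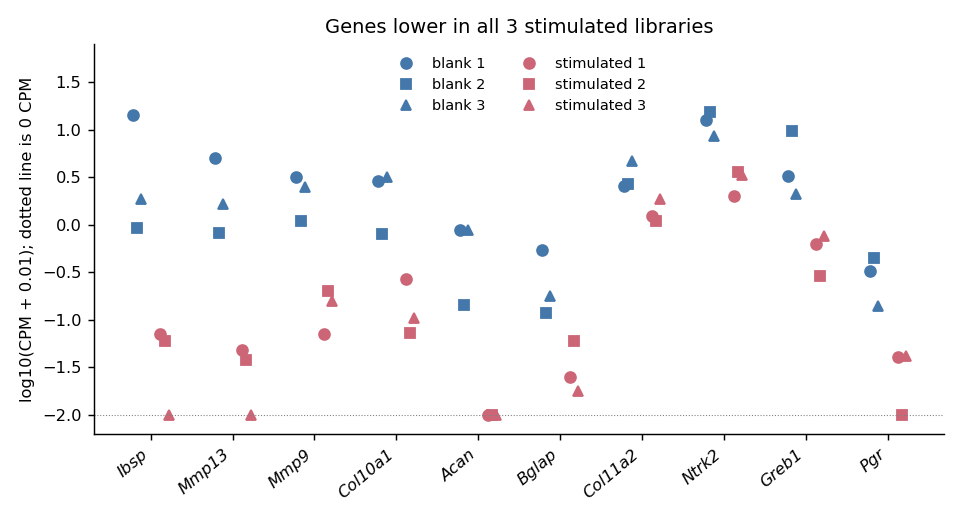
Levels of 10 genes in each blank (blue) and stimulated (red) library as log10 of CPM with 0.01 added; the dotted line marks 0 CPM. The 3 stimulated points of every gene lie below its 3 blank points, and Acan is at 0 in all 3 stimulated libraries.

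Ntrk2 was also lower in all 3 stimulated libraries. It encodes the receptor TrkB for brain-derived neurotrophic factor and stood at 12.4, 15.5 and 8.55 CPM in blank and at 2.00, 3.56 and 3.29 CPM in stimulated libraries. The lowest blank library was above the highest stimulated one, and the log2 fold change was -2.04 ± 0.35. Of 17 neurotrophin and receptor genes, 11 were higher and the median was 0.05, or 7 and -0.07 without stimulated 2. Ngfr, the low-affinity neurotrophin receptor, gave 2.89, 3.37 and 0.612 CPM against 0.282, 1.06 and 0.646 CPM, and its groups overlapped through blank 3. The 8 nerve and Schwann cell markers tested, none at 0 in a whole group, summed to 39.7 to 82.5 FPKM in blank and 30.3 to 65.3 FPKM in stimulated libraries, and their part in these values was not tested.

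Greb1, a gene classically induced by oestrogen, stood at 3.26, 9.58 and 2.08 CPM in blank and at 0.617, 0.280 and 0.747 CPM in stimulated muscle, a log2 fold change of -3.18 ± 0.78. Pgr, the progesterone receptor gene and another oestrogen target, gave 12, 56 and 13 counts in blank and 4, 0 and 4 counts in stimulated libraries. Both were separated, with blank 2 the highest library for each. S100g, named here after its values were seen, encodes the calcium-binding protein calbindin-D9k, which oestrogen induces in the uterus. It gave 73, 460 and 0 counts in blank and 0 in every stimulated library, so the groups met at blank 3. The oestrogen receptor gene Esr1 was not lower, with 3.79, 1.62 and 3.04 CPM against 3.13, 5.45 and 5.71 CPM, a log2 fold change of 0.76 ± 0.69 with overlapping groups. Gper1, the membrane oestrogen receptor gene, was separated and higher, though not on library totals, at 0.741, 1.39 and 0.997 CPM against 1.39, 1.82 and 1.63 CPM. Its blank 2 and stimulated 1 values were equal to the digits shown. Igfbp4, a binding protein of insulin-like growth factors, overlapped at 9.03, 22.9 and 14.0 CPM against 19.4, 31.1 and 23.9 CPM. Of the 12 sex steroid genes tested, 6 were higher and 6 lower with a median of -0.02. Separated were 2 lower (16.7%: Greb1 and Pgr) and 1 higher (8.33%), against 4.72% and 7.9% of all genes.

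Among the circadian clock genes, Bmal1, Npas2, Clock and Nr1d1 were lower in all 3 stimulated libraries. Per2, Per3 and Tef were higher in all 3 on the composition-scaled values and overlapped on library totals. Their promoters are shown first because clock factors act on their genes through short elements there: the E-box bound by BMAL1 with CLOCK or NPAS2, its E-prime form, the ROR element bound by the REV-ERB and ROR receptors, and the D-box bound by TEF and its relatives. The sequences are the 250 bases before the annotated start, 5′ to 3′ on the strand of the gene, from RefSeq's GRCr8 assembly, with matches to 1 of the searched motifs in capitals. Nr1d1 has 2 annotated starts, and both windows are given.
Bmal1 (chr1:176766078-176766327, plus strand): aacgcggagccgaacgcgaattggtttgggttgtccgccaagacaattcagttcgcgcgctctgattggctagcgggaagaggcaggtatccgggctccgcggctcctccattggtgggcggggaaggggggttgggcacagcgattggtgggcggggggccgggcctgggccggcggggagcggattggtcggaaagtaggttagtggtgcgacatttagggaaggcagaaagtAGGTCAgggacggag
Per2 (chr9:99496994-99497243, minus strand): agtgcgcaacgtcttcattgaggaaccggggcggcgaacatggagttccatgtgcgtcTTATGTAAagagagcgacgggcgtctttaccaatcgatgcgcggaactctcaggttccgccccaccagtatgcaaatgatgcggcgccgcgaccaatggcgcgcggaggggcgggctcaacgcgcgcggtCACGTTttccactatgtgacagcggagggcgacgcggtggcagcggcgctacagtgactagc
Nr1d1 window 1 (chr10:84231813-84232062, minus strand): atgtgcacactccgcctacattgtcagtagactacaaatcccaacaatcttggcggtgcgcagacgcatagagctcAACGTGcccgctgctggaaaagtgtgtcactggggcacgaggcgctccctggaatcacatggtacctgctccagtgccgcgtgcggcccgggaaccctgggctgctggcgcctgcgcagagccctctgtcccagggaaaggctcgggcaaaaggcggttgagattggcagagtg
Nr1d1 window 2 (chr10:84229455-84229704, minus strand): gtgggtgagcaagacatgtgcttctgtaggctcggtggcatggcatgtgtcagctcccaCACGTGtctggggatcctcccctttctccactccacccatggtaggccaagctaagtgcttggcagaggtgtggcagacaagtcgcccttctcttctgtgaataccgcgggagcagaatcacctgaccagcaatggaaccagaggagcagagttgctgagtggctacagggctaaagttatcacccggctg

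The motifs searched on both strands were CACGTG for the E-box, a palindrome that matches each strand at the same place, CACGTT for the E-prime form, AGGTCA or GGGTCA for the core of the ROR element, and TTATGNAA for the D-box. The capitals mark an AGGTCA that begins 15 bases before the start of Bmal1, a CACGTT at 62 and a TTATGTAA at 192 bases before the start of Per2, a CACGTT on the opposite strand at 174 bases in the first Nr1d1 window, and a CACGTG at 191 bases in the second. No 2 of these matches overlap other than the E-box with itself. Windows were found for 16 of the 19 clock genes, 18 windows in all. CACGTG stood in 5 of them, CACGTT in 3, the ROR core in 2 and the D-box in 1. Over all 33469 windows of this length the shares were 5.59%, 4.07%, 23.9% and 3.28%. A match is a description of these letters, and the Clock, Npas2 and Per3 windows held none of the 4 motifs.

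Bmal1, the partner of CLOCK and NPAS2, stood at 19.2, 10.9 and 12.3 CPM in blank and at 6.77, 2.05 and 4.22 CPM in stimulated libraries, a log2 fold change of -1.70 ± 0.41. Npas2, a second partner of BMAL1, was close to constant in blank muscle at 4.66, 4.61 and 4.33 CPM and stood at 2.26, 0.904 and 1.16 CPM after stimulation (-1.65 ± 0.47). Clock itself gave 30.9, 22.5 and 27.7 CPM against 21.3, 12.5 and 13.0 CPM. None of the 3 activator genes overlapped between groups, and in each stimulated 1 lay nearest to the blank libraries. Nr1d1, which encodes the repressor REV-ERB alpha, was lower as well, at 247, 133 and 167 CPM against 109, 45.4 and 36.5 CPM (-1.53 ± 0.44). Per2 stood at 16.2, 18.9 and 24 CPM in blank and 26.1, 38.3 and 41.8 CPM in stimulated libraries (0.84 ± 0.23), and Per3 at 24.3, 27.8 and 29.1 CPM against 31.6, 48.5 and 47.2 CPM (0.65 ± 0.21). Both were separated, and again stimulated 1 was the nearest to blank. On library totals the 4 lower genes stayed separated and Per2, Per3 and Tef, described next, did not.

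Tef, an activator at D-boxes, was separated and higher at 43.6, 128 and 124 CPM against 141, 148 and 175 CPM, with blank 1 far below the other 5 libraries; its log2 fold change of 0.65 ± 0.35 was 0.28 without blank 1. Cry2, a repressor, overlapped at 22.9, 39.5 and 66.0 CPM against 169, 46.1 and 92.9 CPM. Bhlhe40, which encodes the repressor DEC1, showed no shift (-0.05 ± 0.40). Of the 19 clock genes, 11 were higher and 8 lower with a median of 0.11; 3 were separated higher, 15.8% against 7.9% of all genes, and 4 lower, 21.1% against 4.72%. On library totals these counts were 0 and 4. The hour of muscle collection was not given in the sources used here, and its part in these values was not tested.

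**Figure D4:**
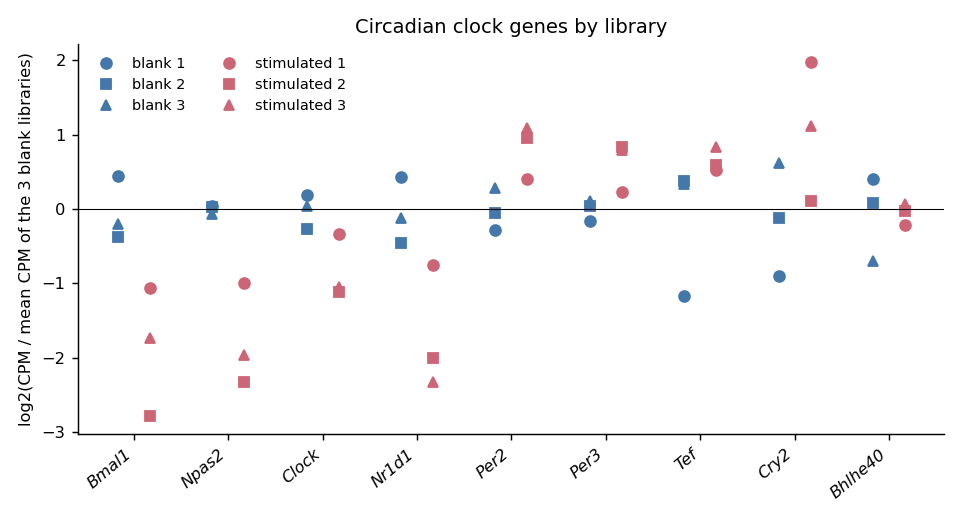
Log2 of each library's CPM over the mean of the 3 blank libraries for 9 clock genes, blank in blue and stimulated in red, with circles, squares and triangles for libraries 1, 2 and 3. All 3 red points lie below the blue ones for Bmal1, Npas2, Clock and Nr1d1 and above them for Per2, Per3 and Tef, which overlap when scaled by library totals.

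Several basement membrane genes were higher in all 3 stimulated libraries. Col4a1 and Col4a2, the chains of the main basement membrane collagen, stood at 131, 163 and 143 CPM and at 79.3, 106 and 97.7 CPM in blank. In stimulated libraries they were at 244, 311 and 210 CPM and at 154, 183 and 130 CPM. The lowest stimulated library lay above the highest blank one for each, with log2 fold changes of 0.81 ± 0.30 and 0.72 ± 0.29, or 0.64 and 0.59 without stimulated 2, the highest library. Col15a1, a collagen of muscle and capillary basement membranes, Hspg2, the gene of the heparan sulphate proteoglycan perlecan, and Lamb1, a laminin chain, were separated and higher as well (0.69 ± 0.39, 0.66 ± 0.26 and 0.73 ± 0.31), and these 3, unlike Col4a1 and Col4a2, overlapped on library totals. Nid1, which links laminin to collagen IV, overlapped at 50.9, 74.0 and 80.0 CPM against 74.5, 158 and 106 CPM. Of the 17 fibrillar and basement membrane collagens 3 (17.6%) were separated and higher, against 7.9% of all genes. Of the 24 other matrix and cross-linking genes, which include Hspg2, Lamb1 and Nid1, 4 (16.7%) were. On library totals these counts were 2 (11.8%) and 1 (4.17%), against 4.66% of all genes.

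Among vascular genes, Sox7, an endothelial transcription factor, gave 2.73, 2.05 and 2.38 CPM in blank and 4.17, 4.93 and 4.36 CPM in stimulated libraries, a log2 fold change of 0.92 ± 0.24. It was tightly grouped in each condition and did not overlap. The endothelial adhesion gene Pecam1 (0.42 ± 0.20) and Notch1, which encodes a receptor of vessel and satellite cell fate (0.60 ± 0.24), were also separated and higher, Pecam1 on the composition-scaled values alone. Aplnr, the apelin receptor gene, overlapped at 1.96, 5.76 and 4.07 CPM against 9.76, 11.9 and 4.98 CPM. Kdr, which encodes the main receptor for vascular endothelial growth factor, was not among them, with 37.3, 23.0 and 8.41 CPM against 10.6, 17.0 and 12.8 CPM. Angpt1, a vessel-stabilising ligand, was separated and lower (-0.83 ± 0.37). Of the 19 angiogenic factors and receptors, 12 were higher with a median of 0.05, or 8 with a median of -0.20 without stimulated 2. Separated were 0 higher and 1 lower (5.26%), against 7.9% and 4.72% of all genes. Of the 6 endothelial markers 5 were higher with a median of 0.20, or 3 with a median of 0.03 without stimulated 2. None was at 0, and they summed to 37.3 to 56.4 FPKM in blank and 51.2 to 85.9 FPKM in stimulated libraries, and the part of endothelial content in these values was not tested.

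The interstitial collagen genes Col1a1 and Col3a1 overlapped between groups, and their values followed stimulated 2. Col1a1, the main fibrillar collagen of tendon and scar, gave 370, 243 and 309 CPM in blank and 108, 671 and 241 CPM in stimulated libraries. Col3a1, the collagen of compliant connective tissue, gave 592, 496 and 690 CPM against 520, 1709 and 800.1 CPM. Stimulated 2 was the highest of the 6 libraries for both genes, and the groups overlapped. The log2 fold change of Col1a1 was 0.14 ± 0.56, or -0.82 without stimulated 2, and that of Col3a1 was 0.77 ± 0.47, or 0.16. Of 17 fibrillar and basement membrane collagens 15 were higher, with a median of 0.31 that became -0.14 without stimulated 2, when 7 were higher. Of 24 other matrix and cross-linking genes 16 were higher, with a median of 0.33 that became 0.02. Both lists hold basement membrane genes described above, so neither describes the interstitial matrix alone. Lox, the enzyme that cross-links collagen and elastin, was lower at 3.23, 5.34 and 6.03 CPM against 1.87, 3.31 and 1.74 CPM, overlapping by a small margin. Smoc2, a matricellular gene of fibro-adipogenic progenitors, was separated and higher, at 19.2, 43.8 and 30.8 CPM against 55.0, 83.1 and 65.1 CPM. Of the 9 fibro-adipogenic progenitor markers tested, 8 were higher, or 3 without stimulated 2, none was at 0, and their sum ran from 415 to 819 FPKM in blank and from 424 to 1400 FPKM in stimulated libraries. Their part in the matrix values was not tested.

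The proteinase list was mixed. Beside the lower Mmp9, Mmp11, which encodes stromelysin 3, stood at 0.450, 0.666 and 0.928 CPM in blank and at 2.65, 3.53 and 1.84 CPM in stimulated libraries (1.95 ± 0.47). Adamts15, a proteinase of versican and aggrecan, gave 5.08, 10.6 and 6.44 CPM against 14.6, 14.0 and 11.2 CPM (0.85 ± 0.31). Both were separated, Mmp11 on library totals too. Of 18 proteinase and inhibitor genes 12 were higher, with a median of 0.08, or 7 with a median of -0.14 without stimulated 2. Mmp13, described above as lower, is not in this list.

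Immune and interferon genes rested on 1 library. Mx1, an interferon-induced antiviral gene, gave 2.07, 3.16 and 2.46 CPM in blank and 1.50, 20.5 and 3.00 CPM in stimulated libraries, and Psmb8, an immunoproteasome subunit, gave 1.01, 2.08 and 1.26 CPM against 0.953, 7.44 and 2.46 CPM. For both, stimulated 2 was far above the other 5 libraries and stimulated 1 below all of them. Of 21 interferon-stimulated genes 19 were higher with a median of 0.71, yet 0 were separated, and without stimulated 2 the count was 3 and the median -0.38. The 15 complement genes had a median of 0.03, or -0.57 without stimulated 2. C3, the central complement protein gene, was the exception to this pattern: it was separated and lower on composition-scaled values, at 0.874, 3.53 and 1.82 CPM against 0.488, 0.624 and 0.374 CPM (-2.07 ± 0.59). Of the 7 leukocyte markers tested, 2 were higher and none was at 0, and they summed to 33.2 to 76.2 FPKM in blank and 23.8 to 139 FPKM in stimulated libraries, lowest in stimulated 1 and highest in stimulated 2. Their part in the interferon values was not tested.

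The myosin heavy chain genes Myh2 and Myh7 differed between stimulated and untouched muscle by less than 1 standard error. Myh2, the fast oxidative myosin heavy chain gene and the most abundant of those measured, stood at 7309 ± 1119 FPKM in blank and 6921 ± 81.3 FPKM in stimulated libraries (SD, n = 3), a log2 fold change of -0.20 ± 0.32 on the count scale. Myh7, the slow isoform gene, stood at 655 ± 66.3 FPKM and 669 ± 116 FPKM (-0.02 ± 0.37). The embryonic Myh3 and the perinatal Myh8, which mark regenerating fibres, gave -0.42 ± 0.70 and -0.12 ± 0.38, and both signs turned without blank 1 (0.51 and 0.42). The 95% intervals of the log2 fold changes ran from -0.82 to 0.43 for Myh2 and from -0.74 to 0.69 for Myh7. Changes within these ranges are not excluded with 3 libraries a group. The intervals use a normal quantile of the SE and can be narrower than the F test would give. Of 12 slow fibre genes 6 were higher with a median of 0.08, and of 11 fast fibre genes 6 were higher with a median of 0.02. Myh1 and Myh4 are not analysed here.

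Some minor muscle genes were separated. Sln, which encodes sarcolipin, an inhibitor of the sarcoplasmic calcium pump, stood at 1.35, 0.837 and 3.19 CPM in blank and 6.23, 14.2 and 4.96 CPM in stimulated libraries (2.24 ± 0.61). Myh13, the extraocular myosin gene, gave 171, 294 and 331 CPM against 522, 691 and 491 CPM (1.10 ± 0.31), although reads of its near relatives could have been split onto it. Actc1, the cardiac actin gene that regenerating fibres also express and that closely resembles Acta1, gave 75.7, 20.5 and 65.9 CPM against 129, 185 and 90.6 CPM. Mymk, which encodes the fusion protein myomaker, gave 0, 0.263 and 0.425 CPM against 0.930, 1.04 and 0.685 CPM. These 4 were higher in all 3 stimulated libraries, and each was highest in stimulated 2. Myoz2, a slow-fibre protein of the Z-disc, was lower at 619, 261 and 305 CPM against 261, 179 and 255 CPM, where blank 2 and stimulated 1 nearly touched. Of 15 embryonic and regeneration genes 10 were higher, with a median of 0.14, or 0.47 without blank 1.

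Genes of the neuromuscular junction leaned higher by small amounts: 16 of 19 were higher with a median of 0.35, or 0.18 without blank 1. Of these 19 genes 1 (5.26%) was separated and higher, against 7.9% of all genes. That gene was Musk, the receptor kinase that organises acetylcholine receptors under the nerve terminal, at 2.44, 2.09 and 2.87 CPM in blank and 3.44, 3.25 and 4.07 CPM in stimulated libraries (0.54 ± 0.29). Agrn, the nerve-derived activator of MuSK, gave 13.3, 29.2 and 23.6 CPM against 26.3, 46.1 and 32.0 CPM, and Chrnd, the delta subunit of the acetylcholine receptor, 2.94, 5.35 and 4.02 CPM against 9.74, 5.50 and 4.84 CPM. Both overlapped. Hdac4, which links denervation to gene repression, also overlapped (0.61 ± 0.29).

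Atrophy genes gave a mixed picture. Fbxo32, the ubiquitin ligase atrogin-1 of muscle wasting, stood at 87.5, 51.4 and 33.7 CPM in blank and 25.0, 14.9 and 22.6 CPM in stimulated libraries, separated and lower with a log2 fold change of -1.46 ± 0.67. Trim63, the other canonical wasting ligase (MuRF1), gave 342, 398 and 953 CPM against 884, 224 and 462 CPM, with wide overlap (-0.11 ± 0.63). The 20 atrophy and FoxO target genes had a median of 0.14, with 11 higher. Fbxo32 was the single separated member, 5.0% of the list against 4.72% of all genes separated lower. Without blank 1 the median was -0.09 with 8 higher, and without stimulated 2 it was 0.29 with 16 higher. Sgk1, a kinase gene induced by glucocorticoids, was separated and higher, though not on library totals, at 25.2, 18.0 and 38.2 CPM against 51.3, 41.5 and 39.0 CPM, where blank 3 and stimulated 3 were close. Of 19 glucocorticoid-responsive genes 16 were higher with a median of 0.26, or 0.08 without blank 1. Fosl2, an AP-1 transcription factor gene, was the separated member of 21 immediate early genes, at 15.2, 16.0 and 13.8 CPM against 22.1, 18.4 and 32.3 CPM (0.69 ± 0.23). That is 4.76% of the list, against 7.9% of all genes separated higher.

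Nuclear genes for oxidative phosphorylation subunits and cytosolic ribosomal proteins were higher in nearly every case, by small amounts that blank 1 enlarged. Of 37 nuclear oxidative phosphorylation subunits 35 were higher with a median of 0.42, and 22 (59.5%) were separated and higher against 7.9% of all genes. Without blank 1 the count was 36 of 37 and the median 0.21. Cox7b, a subunit of cytochrome oxidase, stood at 117, 183 and 178 CPM in blank and 234, 242 and 230.2 CPM in stimulated libraries (0.56 ± 0.22, or 0.36 without blank 1). Ndufa1, of complex I, is an example in which blank 1 was not the lowest blank library. It stood at 39.7, 36.4 and 45.3 CPM against 56.8, 57.2 and 51.2 CPM (0.44 ± 0.17).

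Of 47 cytosolic ribosomal protein genes 43 were higher with a median of 0.39, or 0.18 without blank 1, and 30 (63.8%) were separated and higher. On library totals that count was 4 (8.51%), close to the background of 4.66%, while 23 (62.2%) of the oxidative phosphorylation subunits were separated and higher. Rpl10a gave 69.9, 111 and 114 CPM against 144, 153 and 137 CPM, and Rps9 gave 46.6, 118 and 116 CPM against 138, 161 and 145 CPM. In both, blank 2 and blank 3 stood close to each other and below the stimulated libraries, while blank 1 was far lower. Many ribosomal genes have near-identical copies, between which reads can be split. Citric acid cycle enzymes (15 of 19 higher, median 0.21) and glycolytic genes (13 of 16 higher, median 0.20) followed with smaller medians. Separated and higher were 5 (26.3%) and 3 (18.8%), against 7.9% of all genes. On library totals these counts were 8 (42.1%) and 2 (12.5%), against 4.66%. Mdh2 (0.47 ± 0.25) and Pgam2 (0.66 ± 0.35), the mitochondrial malate dehydrogenase and muscle phosphoglycerate mutase genes, were both separated. Of 23 fatty acid oxidation genes and PPAR targets 13 were higher with a median of 0.05, or 10 with a median of -0.03 without blank 1, and 0 were separated. Ppargc1a, the coactivator of mitochondrial biogenesis, overlapped at 14.7, 6.17 and 7.66 CPM against 15.4, 9.03 and 11.7 CPM (0.34 ± 0.41).

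Transcripts of the mitochondrial genome were lower on the composition-scaled values mainly through blank 1. Mt-co2, which encodes a cytochrome oxidase subunit, gave 51959 CPM in blank 1 and between 10418 and 13981 CPM in the other 5 libraries. The 10 mitochondrial genome transcripts tested had a median log2 fold change of -0.80 with 9 lower, and 0.09 with 8 higher without blank 1. On library totals 2 of the 10 (20.0%) were separated and lower, against 6.24% of all genes.

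**Figure D5:**
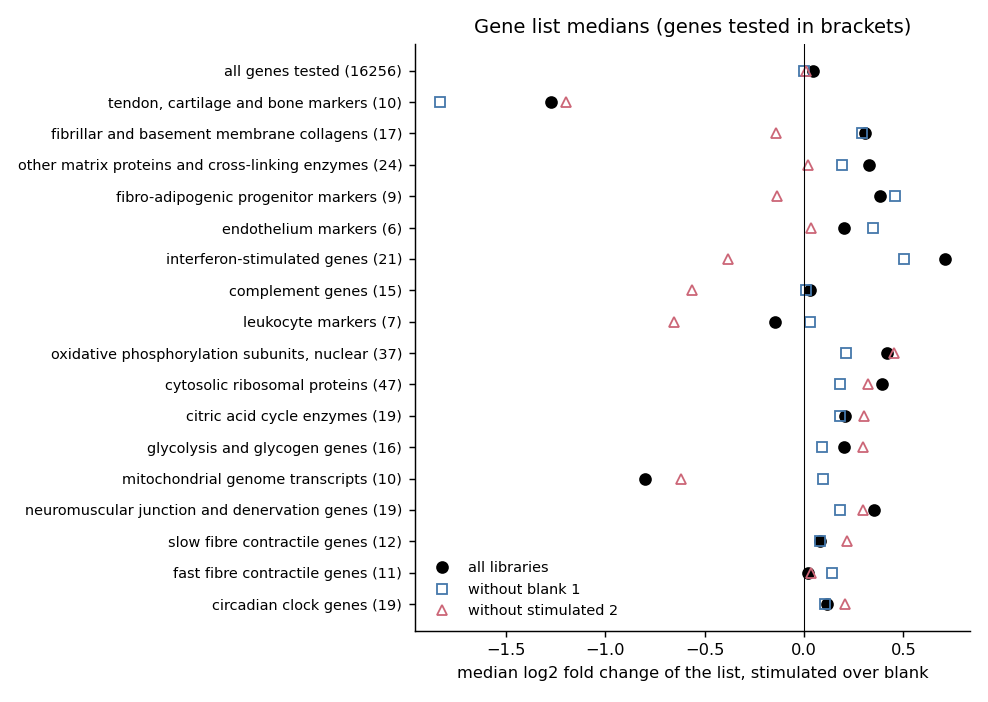
Median log2 fold change, stimulated over blank, of 17 gene lists and of all genes tested, with all libraries (black circles), without blank 1 (blue squares) and without stimulated 2 (red triangles). The mitochondrial genome median moves from -0.80 to 0.09 without blank 1, and the interferon median from 0.71 to -0.38 without stimulated 2.

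The remaining genes with the smallest p values among those separated were of several kinds. Adgrb2, an adhesion receptor gene of brain, gave 0, 17 and 32 counts in blank and 4943, 3531 and 57 counts in stimulated libraries, so the difference came from stimulated 1 and stimulated 2 and stimulated 3 stood near blank. Bok, a member of the BCL-2 family of cell death regulators, was even across libraries at 0.582, 0.883 and 0.681 CPM against 1.66, 2.72 and 1.86 CPM (1.53 ± 0.34). Mid1ip1, a regulator of fatty acid synthesis, gave 8.00, 15.5 and 16.6 CPM against 28.1, 40.1 and 30.9 CPM (1.31 ± 0.31). She, an adaptor protein gene, gave 12.1, 12.9 and 9.30 CPM against 17.1, 19.3 and 20.2 CPM (0.72 ± 0.19). These 3 were separated. Blank 1 was the lowest library for Mid1ip1, whose log2 fold change was 1.03 without it. Grik4, a kainate receptor subunit gene, stood at 0.953, 0.720 and 0.731 CPM against 3.29, 2.40 and 1.66 CPM. Rpl30l2, a copy of a ribosomal protein gene and therefore open to split reads, gave 5.03, 5.84 and 7.64 CPM against 37.3, 8.64 and 33.5 CPM. Lman1, a cargo receptor between the endoplasmic reticulum and the Golgi, was lower at 49.0, 34.0 and 29.7 CPM against 18.3, 18.9 and 18.0 CPM (-1.03 ± 0.21, or -0.81 without blank 1), with stimulated libraries that hardly differed among themselves.

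Several genes were followed because an earlier account of these data had named them for the untreated model against the same blank libraries; sharing those libraries, they are given as values only. Rrad, which encodes a small GTPase that restrains calcium channels and is induced in diseased muscle, stood at 11.5, 8.69 and 9.84 CPM in blank and 1.79, 5.18 and 4.99 CPM in stimulated libraries (-1.33 ± 0.41), with no overlap. Thbs1, a matricellular activator of TGF-beta, was separated by a narrow margin, at 14.8, 9.20 and 11.3 CPM against 14.9, 17.2 and 15.7 CPM. Ccn2, the connective tissue growth factor gene, overlapped at 42.3, 70.1 and 54.4 CPM against 65.6, 97.8 and 119 CPM (0.76 ± 0.28). The matrix genes Tnc (-0.63 ± 0.47) and Fbn1 (-0.17 ± 0.34) overlapped, and Fbn1 was -0.75 without stimulated 2. The stress gene Gadd45a (0.21 ± 0.21), the glucocorticoid receptor gene Nr3c1 (-0.25 ± 0.24), the myogenic factor gene Myf6 (-0.09 ± 0.36), the muscle gene Ky (0.25 ± 0.41) and Tmem131l (0.04 ± 0.19) overlapped too, with shifts within about 1 standard error of 0, although Nr3c1 was separated and lower on library totals. Of the 17 genes followed, Plpp6, Spata6l, Ntrk2, Nr1d1, Rrad, Thbs1 and Musk were separated. Over all genes 7.9% were separated higher and 4.72% lower. Genes chosen on the same blank libraries are more likely to be separated from them, so this tally does not measure what persists after treatment.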

How the data were processed

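RNA from the pubococcygeus muscle was sequenced in 9 libraries. Build mRatBN7.2 and the tools RSEM 1.3.1, Bowtie2 and DESeq2 1.4.5 come from the submitters' processing notes; the strand setting was not given in the sources used here. Expected counts are estimates per gene by the authors, deposited as whole numbers. The authors also deposited FPKM values, which adjust for gene length and depth. Of 30518 rows, 4341 have no symbol. Genes were filtered with filterByExpr, scaled by TMM factors and tested with edgeR 4.0.16 in R 4.3.3 (quasi-likelihood F test, robust, all 9 libraries in the fit), with Benjamini-Hochberg adjustment at 0.05; standard errors are |log2 fold change| divided by the root of F. CPM uses TMM-adjusted library sizes, and 3 counts are 0.0203 to 0.0590 CPM in the 6 libraries compared.

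The members and gene lists were chosen with earlier results of these data known. Named genes were the 10 per direction with a mean CPM of at least 1 and no overlap by smallest p, up to 4 members of each list by smallest p, a set of muscle, matrix and steroid receptor genes, and 17 genes from an earlier account; Clock, Per3, Tef, Cry2, S100g, Aldh1a1, Fbp2 and the antisense pairs were named after their values were seen. The 19 clock genes were matched by symbol to RefSeq promoter windows of GRCr8. Alternatives used DESeq2 1.42.0, limma 3.58.1, FPKM with pseudocounts of 1 and 0.1, other scalings and filters, a replicate block, and each library left out.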

Additional observations from a re-analysis of the deposited data

How the results depend on the processing

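The count of 1 called gene held with DESeq2 size factors, library totals, no mitochondrial genome transcripts, no filter, a mean CPM of at least 1, voom with sample weights (where the gene was Spata6l) and log2(FPKM + 0.1). It became 21 with DESeq2 and 0 with log2(FPKM + 1) and in the 6 libraries compared, and ran from 0 to 1 on leaving out a library, being 0 without any of the 3 stimulated libraries, blank 1, blank 2, SUI 1 or SUI 3. In 3 alternatives chosen after seeing the data it was 0: without blank 1 and stimulated 1, without blank 1 and stimulated 2, and with Plpp6 and Spata6l counted as 1 gene. Unadjusted p values under 0.05 numbered 353 to 1647. Genes separated higher numbered 758 on library totals, and on leaving out a library 1235 without SUI 2 to 2339 without stimulated 1. Those lower numbered 778 without SUI 3 to 1856 without blank 1. Fewer blank or stimulated libraries separate more easily. Leaving out an SUI library keeps the 6 libraries compared and changes the gene filter and the scaling factors. Labels share replicate numbers across groups. The labels do not say whether equal numbers share an animal, litter or day. Deviations of same-numbered blank and stimulated libraries correlated at -0.00382, 0.113 and -0.0544. Differently numbered libraries were not compared, so these values cannot show whether the numbers pair the samples. The edgeR fit with a replicate block called 0 genes (smallest adjusted p 0.225), with 541 genes at an unadjusted p under 0.05. Of 108 named genes 94 kept their direction under every alternative; the other 14 had shifts near 0 or rested on 1 library, and the cause was not tested. On library totals Bhlhe40 became 0.059, Myh7 0.028 and Myh8 0.047. With voom Bhlhe40 became 0.27, Col1a1 -0.18, Myh7 0.075, Myh2 0.12, Myh3 0.11, Myh8 0.26 and Tmem131l -0.045. With log2(FPKM + 1) Bhlhe40 became 0.082, Col1a1 -0.14, Myh7 0.020, Myh8 0.078 and Myf6 0.080. With log2(FPKM + 0.1) Bhlhe40 became 0.084, Col1a1 -0.15, Myh7 0.020, Myh8 0.080 and Myf6 0.086. Without blank 1 and stimulated 1, Bhlhe40 became 0.27, Fbn1 0.19, Myh2 0.082, Myh3 0.47 and Myh8 0.42. Without blank 1 and stimulated 2, Bhlhe40 became 0.18, Col1a1 -0.68, Myh7 0.25, Myh2 0.22, Myh3 0.34, Myh8 0.33, Mt-co2 0.11, Nr3c1 0.062 and Mx1 -0.34. With the replicate block Col1a1 became -0.0021 and Myf6 0.026. On leaving out a library the ranges were -0.30 to 0.19 for Bhlhe40, -0.82 to 0.57 for Col1a1, -0.75 to 0.092 for Fbn1, -0.22 to 0.16 for Myh7, -0.37 to 0.14 for Myh2, -0.75 to 0.51 for Myh3, -0.36 to 0.42 for Myh8, -0.30 to 0.41 for Myf6, -0.72 to 0.51 for Trim63, -0.024 to 0.40 for Ky, -1.41 to 0.015 for Mt-co2, -0.19 to 2.19 for Mx1 and -0.091 to 0.16 for Tmem131l. Of 1098 list medians under the alternatives, 1054 moved by less than the spread between libraries (1 SD). That spread includes the libraries that stood apart, so a median can change sign within it. The complement median went from 0.03 to -0.57 without stimulated 2, beside an SD of 0.86. Some alternatives also differ little from the main fit, so the count of 1054 is not a measure of robustness. Genes under about 1 CPM rest on few counts, and absence there is limited by the floor of 3 counts.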

Other observations

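Aldh1a1 and Fbp2 were named after their values were seen. Aldh1a1, which encodes a retinaldehyde dehydrogenase, stood at 32.8, 35.7 and 31.2 CPM in blank and at 103, 83.5 and 103 CPM in stimulated libraries, a log2 fold change of 1.54 ± 0.46 (SE) with no overlap. The 3 blank libraries, blank 1 among them, lay within 5 CPM of each other. Fbp2, the muscle fructose bisphosphatase gene, gave 60.2, 304 and 288 CPM in blank and 57.7, 74.6 and 74.1 CPM in stimulated libraries, where blank 1 stood with the stimulated group.

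Plpp6 and Spata6l are 1 of 1331 pairs of tested genes that overlap on opposite strands. In 31 of these pairs both genes were separated between blank and stimulated muscle. In 8 of the 31 the 2 genes moved in opposite directions, and in the rest they moved together. Over all genes tested 7.9% were separated higher and 4.72% lower. How many pairs those shares alone would give was not computed, so the pair counts are a description only. Besides Plpp6 and Spata6l the 8 were Jpt1 and Armc7, Gga3 and Mrps7, Atp5pf and Gabpa, Uqcr10 and Zmat5, Zfp341 and Eef1a1l2, Gcc1 and Arf5, and Timm8b and Nkapd1. In 3 of the 8, namely Plpp6 with Spata6l, Gga3 with Mrps7 and Timm8b with Nkapd1, the summed CPM of the pair overlapped between groups. Uqcr10, a subunit of complex III, had a log2 fold change of 0.50 and its partner Zmat5 of -0.76, and Atp5pf, a subunit of ATP synthase, 0.37 with Gabpa at -0.64. The part of unstranded counting in these pairs was not tested.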
